A study of Mus musculus with 2 samples.

Results

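The regions described here are those called in the 4 Hox gene clusters of the mouse and in the 200 kb on either side of each cluster. They come from 2 deposited lists of regions called from chromatin immunoprecipitation and sequencing, in mm9 coordinates, and a region was taken when its midpoint lay in one of these windows. This gave 48 of the 25592 regions of sample 1 and 71 of the 42619 regions of sample 2. With overlapping regions of the lists merged, it gave 78 of 47560 regions, of which 37 lay inside a cluster and 41 beside one.

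Hox genes encode homeodomain transcription factors that give cells their position along the body axis and the limbs. They stand side by side in clusters, and their order along the chromosome matches the order of their expression from the anterior end of the body (low gene numbers) to the posterior end (high gene numbers). In tissues that do not express them the clusters are textbook targets of Polycomb repression, and long-range enhancers lie in the DNA beside them. The front of the head, from which the cornea forms, lies anterior to the main domain of Hox expression.

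The tissue was corneal epithelium of mice at postnatal day 7 that carried the K14 DN-Clim transgene, and both samples belong to this 1 group. The transgene drives a Myc-tagged dominant-negative Clim from the keratin 14 promoter, which is active in basal epithelial cells. This tag was the target of the antibody. Clim proteins (also called Ldb) are nuclear cofactors without a DNA-binding domain that join LIM-homeodomain and LMO proteins into complexes. Hox proteins have no LIM domain. No library without the transgene, input library or library with another antibody was analysed here, so no background can be set beside these counts. The labels do not say whether the replicates came from separate animals or from pools, and agreement between them may be technical. The lists hold no read counts, and the depth of each library is unknown. Lists of regions do not allow a check of the tissue by marker genes.

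The HoxA window lay on chromosome 6, with the cluster from 52100000 to 52220000. The HoxB cluster was taken as 96050000 to 96230000 on chromosome 11, HoxC as 102740000 to 102870000 on chromosome 15 and HoxD as 74500000 to 74610000 on chromosome 2. These are round edges and not the ends of genes. No mm9 annotation or sequence was used here, so no region was assigned to a gene and no sequence is shown. All 38 Hox genes considered were found in the RefSeq table of the GRCm38 assembly, which was used for the order and the number of genes and not for positions: 10 in HoxA, 10 in HoxB, 9 in HoxC and 9 in HoxD. Along rising coordinates, HoxA ran from Hoxa2 to Hoxa13, HoxB from Hoxb13 to Hoxb1, HoxC from Hoxc13 to Hoxc4 and HoxD from Hoxd13 to Hoxd1. The lower-coordinate end is thus the anterior end of HoxA and the posterior end of the other clusters. The next coding genes listed on the lower and the higher side were Skap2 and Evx1 for HoxA, Ttll6 and Skap1 for HoxB, Calcoco1 and Smug1 for HoxC, and Evx2 and Mtx2 for HoxD. Evx1 and Evx2 are homeobox genes related to the Hox family, and Skap1 and Skap2 encode adaptor proteins of immune cell signalling.

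Called regions were denser inside the clusters than on the rest of the same chromosomes. The 37 merged regions inside lay in 0.54 Mb, or 68.5 per Mb (exact Poisson 95% interval 48.2 to 94.4), against 19.8 per Mb on the rest of the 4 chromosomes. The ratio was 3.45 (2.43 to 4.76). Sample 1 alone had 23 regions inside (ratio 3.92, interval 2.48 to 5.88) and sample 2 alone had 33 (ratio 3.45, interval 2.37 to 4.84). The 19 regions inside that were in both lists gave a ratio of 4.03 (2.43 to 6.30). Beside the clusters, the 41 merged regions made 25.6 per Mb, 1.29 times the rest, with an interval of 0.927 to 1.75 that includes 1. This interval lay just above 1 under 4 of 13 alternatives, among them HoxD left out (ratio 1.45, interval 1.007 to 2.01). Intervals here and below cover counting error only and treat regions as independent. On these chromosomes the count of merged regions in stretches of cluster length had a variance 1.63 to 2.41 times its mean, so the intervals are too narrow. No test was run, because there was 1 group and regions are not replicates.

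**Figure D1:**
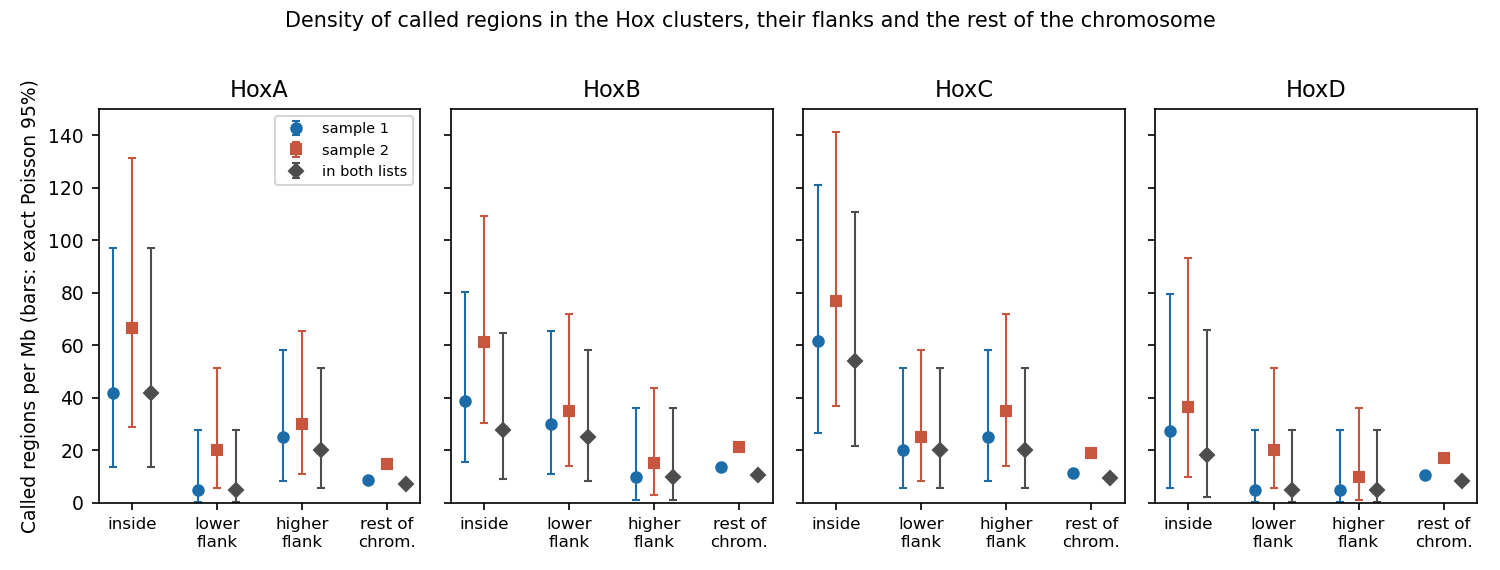
Called regions per Mb (vertical axis, bars are exact Poisson 95% intervals) inside each Hox cluster, in the 200 kb of lower and of higher coordinates beside it, and on the rest of its chromosome, for sample 1, sample 2 and the regions in both lists. Inside, the points of all 3 sets lie above those of the rest of the chromosome in each cluster, and the intervals of HoxD, and that of HoxB for regions in both lists, reach down to the level of the rest.

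The clusters were not alike in this. HoxC and HoxA were the densest relative to their chromosomes, each with a ratio of 4.02 for merged regions (intervals 2.01 to 7.19 and 1.74 to 7.92). HoxB had a ratio of 3.03 (1.61 to 5.18) and HoxD one of 2.38 (0.771 to 5.54), which includes 1. These intervals overlap, and the differences between clusters were not tested. Set among consecutive stretches of the same length on the same chromosome, 1.04% of the 772 stretches of 130 kb held as many merged regions as HoxC or more, 1.56% of the 1219 stretches of 120 kb as many as HoxA, 2.27% of the 660 stretches of 180 kb as many as HoxB, and 11.5% of the 1624 stretches of 110 kb as many as HoxD. For regions in both lists these shares were 0.389%, 0.984%, 8.64% and 23.2% in the same order. They place the clusters on their chromosomes and are not a test, since the clusters differ from most stretches in other ways. One of these is gene content. The Hox genes counted here make 83.3 genes per Mb of HoxA, 55.6 of HoxB, 69.2 of HoxC and 81.8 of HoxD, against 7.70, 13.5, 7.72 and 9.97 coding genes per Mb of their chromosomes in the GRCm38 table. HoxD thus had a gene density near that of HoxA and the lowest region density of the 4 clusters. The part of gene density in the counts was not tested.

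The score of a region is the peak caller's own value in the authors' lists. What it measures is not stated, so it is given beside its percentile within its list, where 100 is the highest. The lowest score in the lists was 70.03 in sample 1 and 50.00 in sample 2. The list of sample 2 is also the longer one, so percentiles of the 2 lists rank regions against unlike sets. A higher percentile in sample 2 is therefore not a stronger signal there.

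In HoxA, all regions in both lists lay toward the anterior end. The cluster held 8 merged regions, 5 of them in both lists and 3 in sample 2 only, and none in sample 1 only. With the cluster edges moved 10 kb inward 4 of the 8 remained; 3 of those lost lay at the Hoxa2 end and 1 at the Hoxa13 end. The first pair of shared regions was 0.30 kb apart. Of these, the region from 52100907 to 52101042 was weak in both lists, with a score of 85.74 in sample 1 (percentile 8.24) and 61.74 in sample 2 (24.7). Its neighbour from 52101343 to 52101531 had the highest score of any region inside the 4 clusters in sample 1, 470.08 (percentile 98.8), and 126.81 in sample 2 (82.8). The neighbours thus differed far more in score than in place.

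The other 3 shared regions of HoxA lay up to 41.8 kb from the cluster's lower edge. The region from 52110273 to 52110455 scored 102.44 and 89.20 in samples 1 and 2. The next, from 52125729 to 52125952, scored 149.47 and 131.91, and the last, from 52141669 to 52141871, scored 159.97 and 154.52. Each of these 3 ranked higher in sample 2 (percentiles 57.4, 85.0 and 91.5) than in sample 1 (16.4, 38.9 and 45.4). From there to the higher edge, 78.1 kb or 65.1% of the cluster held no region of both lists, and its single called region was one of sample 2 only from 52210169 to 52210337, with a score of 53.02 (percentile 7.72). The 78.1 kb end at the round cluster edge and not at a region. The next shared region began at 52261543, with its midpoint 41.6 kb beyond that edge. Between neighbouring shared regions on chromosome 6 the median of the full distances was 76.4 kb. The 78.1 kb were the longest stretch of the cluster without a shared region, and a longest stretch tends to exceed a median. The stretch is on the side of Hoxa13, the HoxA gene of the distal limb and the urogenital tract.

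Just outside the HoxA cluster stood the strongest region of all 4 windows by mean percentile. It lay from 52095833 to 52096129, 4.02 kb below the cluster's lower edge on the Skap2 side, and scored 354.97 in sample 1 (percentile 95.4) and 410.37 in sample 2 (99.9). Its edges differed by 5 and 4 bp between the lists. The edge used here puts it beside the cluster, although it is nearer to the first regions inside than to any other region beside. On the Evx1 side, the highest-ranking shared regions were those from 52277121 to 52277241 (scores 226.09 and 110.05) and from 52411401 to 52411528 (247.46 and 85.16). Between these, 129.5 kb from 52281902 to 52411400 held no region of either list, the longest such stretch of the HoxA window.

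**Figure D2:**
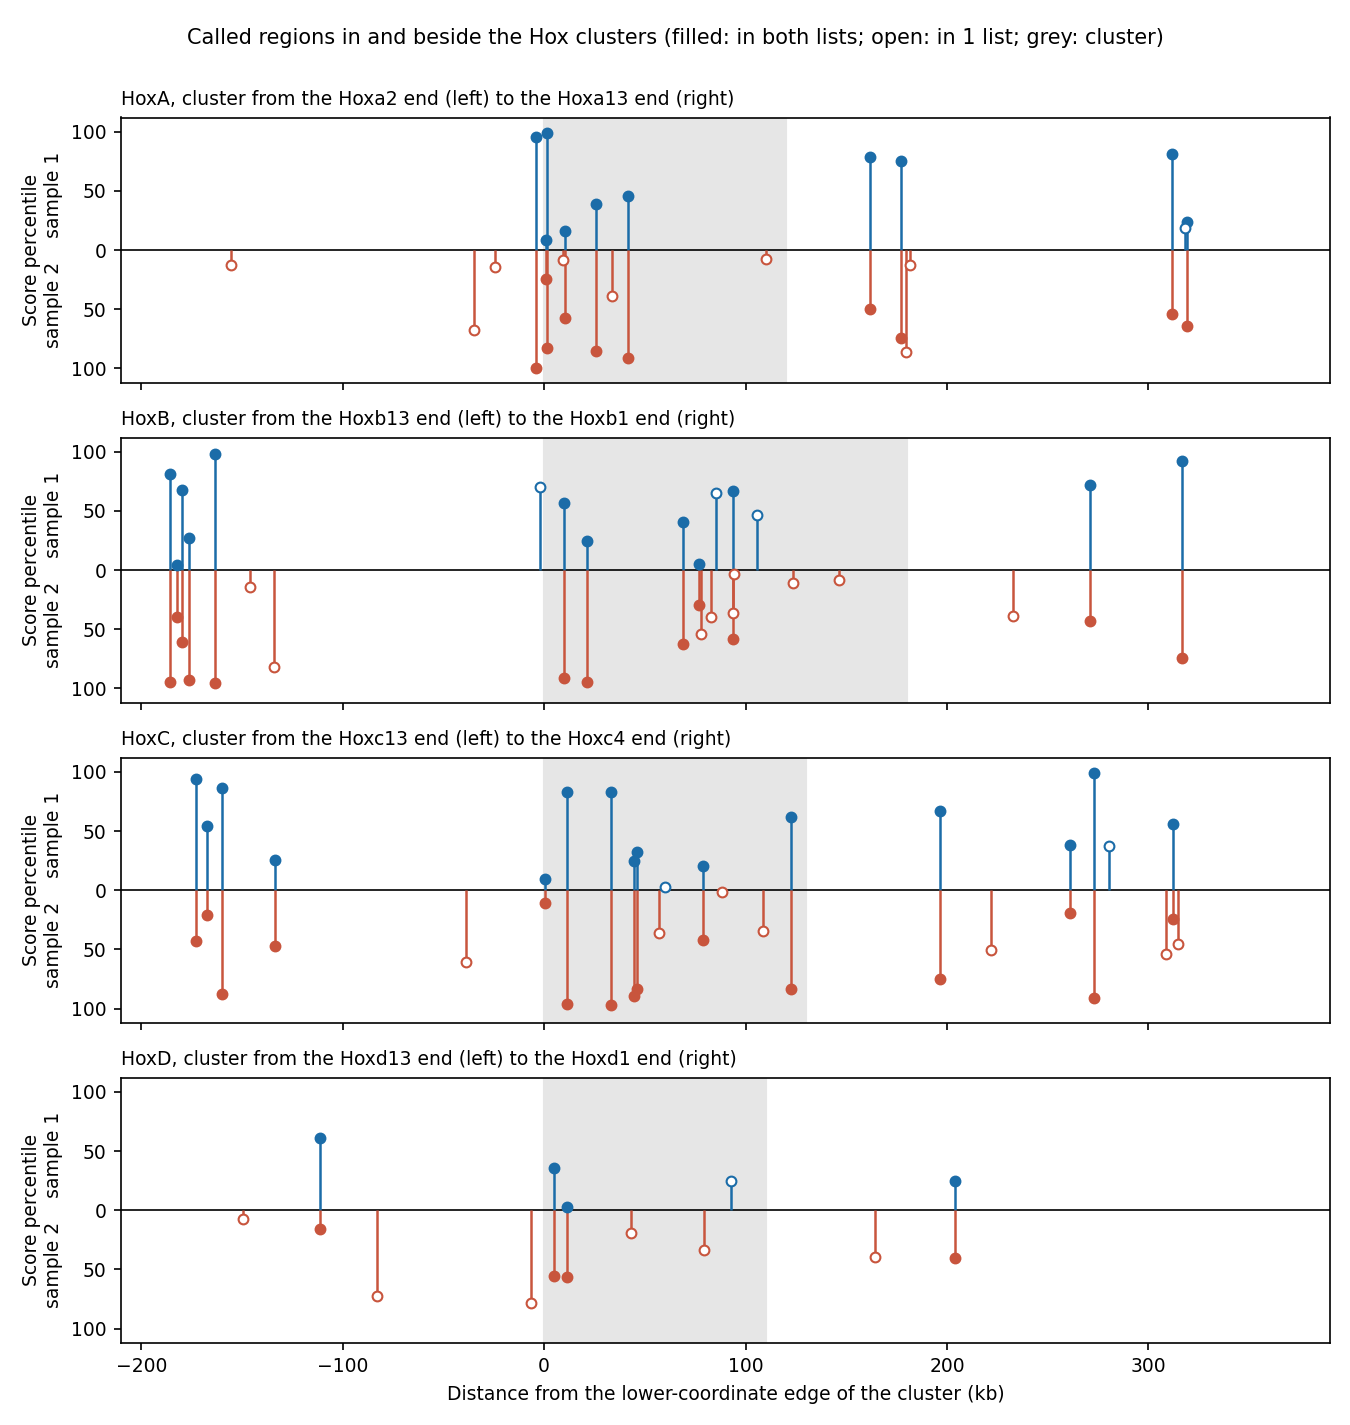
Called regions along the 4 Hox windows, with the distance from the lower-coordinate edge of each cluster in kb on the horizontal axis and the score percentile within the list on the vertical axis, sample 1 upward and sample 2 downward. Filled circles are in both lists, open circles in 1 list, and the cluster is grey; all 5 filled HoxA regions inside the cluster lie within 41.8 kb of its left edge, and both filled HoxD regions within 11.3 kb.

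HoxB was the longest cluster and held most regions, 13 after merging, but fewer than 50% of them were in both lists. There were 5 in both, 2 in sample 1 only and 6 in sample 2 only. Toward Hoxb13, the gene at the posterior end, lay the shared regions from 96059948 to 96060190 (scores 179.87 and 154.52 in samples 1 and 2) and from 96071378 to 96071497 (121.01 and 173.55). The latter is one of 3 shared regions inside the clusters that scored higher in sample 2 than in sample 1. Both ranked among the upper 10% of sample 2 (percentiles 91.5 and 94.6) but not of sample 1 (56.9 and 24.3). The interval between this pair and the next region was 47.3 kb and was the longest inside HoxB without any region.

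Regions crowded in the middle of HoxB. From 96118846 to 96144313 it held 3 shared regions, 4 of sample 2 only and 1 of sample 1 only. The shared ones lay from 96118846 to 96118928 (scores 152.59 and 94.84 in samples 1 and 2), from 96126962 to 96127137 (80.08 and 65.23) and from 96143938 to 96144015 (202.53 and 90.75). The last stood between regions of sample 2 only at 0.216 kb and 0.160 kb, which scored 69.82 and 50.81. The 2 regions of sample 1 only in HoxB were of middle rank, 196.39 (percentile 64.9) and 162.27 (46.9), and had no partner in the longer list of sample 2. Beyond 96144015 no region of both lists lay in the last 86.0 kb of the cluster, the side of Hoxb1, which is a gene of the hindbrain. Counted past the cluster edge to the next shared region, this stretch was 176.9 kb. It was the longest stretch of the HoxB window without a shared region. The median distance between shared regions on chromosome 11 was 51.8 kb, but a longest stretch tends to exceed a median. How many distances on the chromosome were as long was not determined.

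Beside HoxB, 5 shared regions stood together at the outer end of the lower flank, the side of Ttll6, between 163.2 and 185.7 kb from the cluster. They included the region from 95886780 to 95886873, with 444.00 in sample 1 (percentile 98.5) and 177.12 in sample 2 (95.03), and the region from 95864258 to 95864430, with 247.97 and 174.34. From 95915956 to 96048034, 132.1 kb between this group and the cluster held no region. A single region of sample 1 (209.85, percentile 70.4) lay 1.93 kb below the cluster. On the Skap1 side the highest-ranking shared region, from 96366625 to 96366802, scored 315.77 and 110.07.

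HoxC held the most shared regions, 7 of 11 merged ones, and they reached from one end of the cluster to the other. With the cluster edges moved 10 kb inward 9 of the 11 remained. Those lost were the first and the last shared region. There was 1 region of sample 1 only and 3 of sample 2 only. At the Hoxc13 end, the region from 102740264 to 102740474 was weak in both lists (88.56 and 54.47, percentiles 9.67 and 10.7). Next came the strongest pair of the cluster. The region from 102751451 to 102751576 scored 255.43 in sample 1 and 184.99 in sample 2. Its neighbour from 102773146 to 102773228 had scores of 256.80 and 202.97. These 2 stood at percentiles 83.2 and 83.4 of sample 1 and at 96.01 and 97.4 of sample 2. Hoxc13, the nearest gene by order to this end, is known for hair and nail differentiation, but the distance of either region to it was not determined.

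Further along HoxC, the shared regions from 102784543 to 102784640 (122.47 and 143.63 in samples 1 and 2) and from 102786000 to 102786086 (137.36 and 128.50) were 1.36 kb apart. They had low percentiles in sample 1 (24.9 and 32.1) and high ones in sample 2 (89.0 and 83.5). The last 2 shared regions lay from 102818879 to 102819074 (111.27 and 74.91) and from 102862680 to 102862784 (189.99 and 128.54), the latter 5.59% of the cluster's length from its Hoxc4 end. With the edges used here, HoxC was the only one of the 4 clusters with a region of both lists in the outer 10% of its higher-coordinate end. Beside HoxC, the highest-ranking shared regions were those from 103013108 to 103013263 on the Smug1 side (467.68, percentile 98.8, and 151.62, percentile 90.8), from 102580192 to 102580317 on the Calcoco1 side (272.82 and 139.85) and from 102936611 to 102936709 (202.35 and 112.08). The longest stretch of the HoxC window without a region was 94.7 kb, from 102606562 to 102701285 in the lower flank.

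HoxD held the fewest regions, 5 after merging, of which 2 were in both lists, 1 in sample 1 only and 2 in sample 2 only. Both shared regions lay at the Hoxd13 end, the end of the genes of digits and genitalia. The region from 74504860 to 74505001 scored 144.40 in sample 1 (percentile 36.1) and 86.61 in sample 2 (55.7), and the region from 74511182 to 74511388 scored 76.37 (2.999) and 87.99 (56.7). From there to the Hoxd1 end, 98.6 kb or 89.6% of the cluster held no region of both lists. The unshared regions in these 98.6 kb scored 58.65 and 67.62 in sample 2, both below the lowest score of sample 1, and 123.27 in sample 1. Counted past the cluster edge to the next shared region, the stretch was 192.5 kb. It was the longest stretch of the HoxD window without a shared region. The median distance between shared regions on chromosome 2 was 59.0 kb, but a longest stretch tends to exceed a median. How many distances on the chromosome were as long was not determined.

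The HoxD flanks held 6 merged regions, 0.784 times the density of the rest of chromosome 2 (interval 0.288 to 1.71, which includes 1). The 2 shared ones lay from 74388464 to 74388581 (189.73 and 57.26 in samples 1 and 2) and from 74703906 to 74704016 (122.09 and 73.10). Neither reached the upper 10% of a list, and no region of the whole HoxD window did. The longest stretch without a region, 106.0 kb from 74704017 to 74810000, took up the outer end of the Mtx2 side. The large gene deserts beside HoxD are known for limb enhancers, which lie partly beyond the 200 kb considered here.

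The shared regions beside HoxB and HoxC lay mostly in the farther 100 kb of the flanks, and those beside HoxA and HoxD did not. Of the 22 shared regions in the flanks, 6 lay in the nearer 100 kb and 16 in the farther 100 kb. In HoxB 1 was in the nearer and 6 in the farther part, and in HoxC 1 and 7. HoxA had 3 in the nearer and 2 in the farther part, and HoxD 1 in each. Of all 41 merged regions there, 17 were in the nearer and 24 in the farther part, with more in the nearer part in HoxA (7 against 4) and HoxD (4 against 2). In HoxB, HoxC and HoxD the nearest shared regions beside the cluster were 91.0, 66.7 and 94.0 kb away. In HoxA the nearest was the strong region at 4.02 kb.

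Regions of the windows were found in both replicates about as often as regions elsewhere. Over the whole lists, 80.4% of the sample 1 regions and 48.4% of the sample 2 regions had a partner in the other list, with 1 bp of overlap as the minimum. In the Hox windows these were 41 of 48 (85.4%, exact 95% interval 72.2 to 93.9%) for sample 1 and 41 of 71 (57.7%, 45.4 to 69.4%) for sample 2. On the rest of the 4 chromosomes they were 80.3% and 49.4%, within both intervals. Inside the clusters the counts were 19 of 23 in sample 1 (82.6%, 61.2 to 95.05%) and 19 of 33 in sample 2 (57.6%, 39.2 to 74.5%), and beside them 22 of 25 (88.0%, 68.8 to 97.5%) and 22 of 38 (57.9%, 40.8 to 73.7%). By cluster, the share inside ran from 2 of 3 in HoxD to 5 of 5 in HoxA for sample 1, and from 5 of 11 in HoxB to 7 of 10 in HoxC for sample 2.

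Inside the clusters, sharing divided by score. Of the 14 regions of sample 2 only, 11 scored below 70.03, the lowest score of sample 1, a comparison that takes the scores of both lists as one scale. At or above this score 16 of 19 sample 2 regions inside were shared (84.2%, interval 60.4 to 96.6%), and below it 3 of 14 (21.4%, 4.66 to 50.8%). The rest of the 4 chromosomes had 59.5% (58.2 to 60.7%) and 32.3% (30.8 to 33.9%). Beside the clusters the division was smaller, with 18 of 29 (62.1%, 42.3 to 79.3%) and 4 of 9 (44.4%, 13.7 to 78.8%). At or above this score the 59.5% of the rest lay just below the interval of the inside, and the 2 intervals overlapped only between 60.4 and 60.7%. Below it the 32.3% of the rest lay within the interval of the inside. These differences were not tested.

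Over all their regions, the dense clusters did not stand out by high scores, but the regions in both lists ranked differently in the 2 samples. In sample 1 the median percentile was 36.1 inside (lowest 2.41, highest 98.8), 67.7 beside (3.92 to 98.8) and 49.2 on the rest of the 4 chromosomes. In sample 2 it was 41.7 inside (1.81 to 97.4), 52.2 beside (7.75 to 99.9) and 50.0 on the rest. Of the regions inside, 1 of 23 in sample 1 and 5 of 33 in sample 2 were in the upper 10% of their list. In the flanks 5 of 25 and 5 of 38 were. The wide ranges inside and beside overlapped almost entirely. Among the 19 shared regions inside, 6 lay in the upper 50% of sample 1 and 15 in that of sample 2, and 17 had a higher percentile in sample 2. Their median percentile was 36.1 in sample 1 and 82.8 in sample 2, against 53.2 and 61.9 for shared regions on the rest of the 4 chromosomes. Shared regions on the rest thus also ranked higher in sample 2, but by less. Of them, 52.4% were in the upper 50% of sample 1 and 64.0% in that of sample 2. Of the pairs there, 58.6% had the higher percentile in sample 2. Beside the clusters 9 of 22 pairs did. These differences were not tested.

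**Figure D3:**
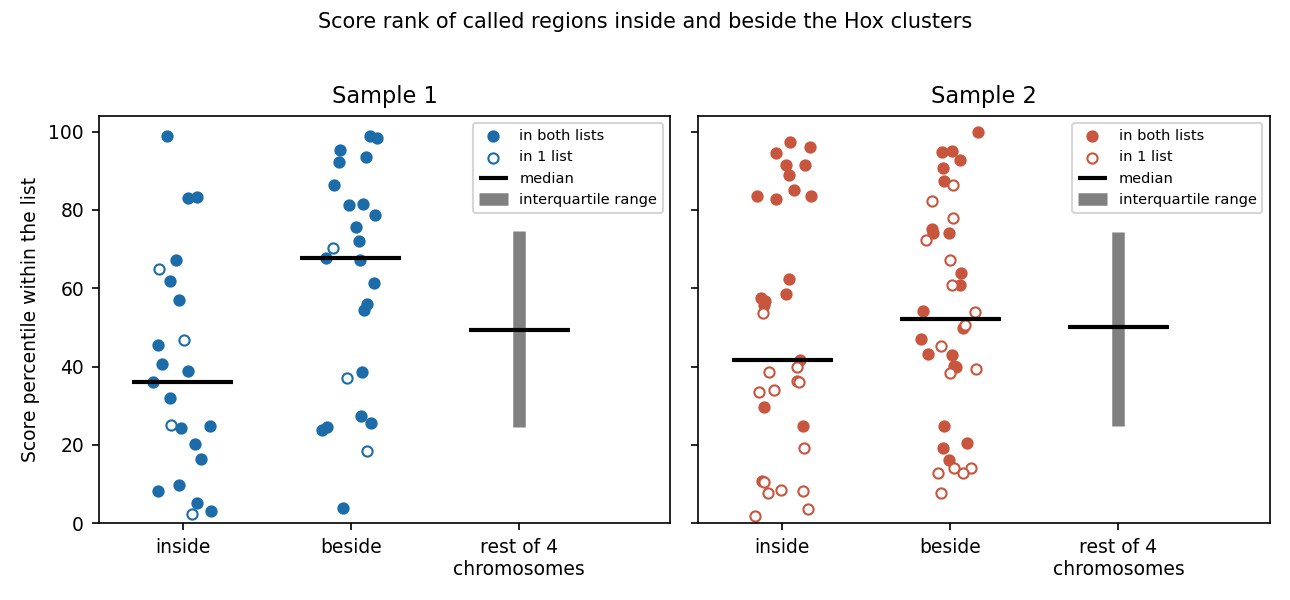
Score percentile within the list (vertical axis) of each region inside and beside the Hox clusters, for sample 1 and sample 2, with the median as a black line and, for the rest of the 4 chromosomes, the interquartile range as a grey bar. In both samples the regions inside spread over nearly the whole scale, with medians of 36.1 and 41.7, below those of 67.7 and 52.2 beside the clusters.

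The scores of shared regions in the Hox windows were compared between replicates. Spearman's rho between the scores was 0.458 over the 41 shared regions of the windows (Pearson's r 0.443). It was 0.661 over the 19 inside (0.466) and 0.574 over the 22 beside (0.498), against 0.195 (0.303) over the 4747 overlapping pairs on the rest of the 4 chromosomes. These are correlations across regions of the same pair of libraries, given as a description, and the difference between them was not tested. The sample 1 score was the higher one in 16 of 19 pairs inside and 20 of 22 beside, as in 85.0% of pairs elsewhere.

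**Figure D4:**
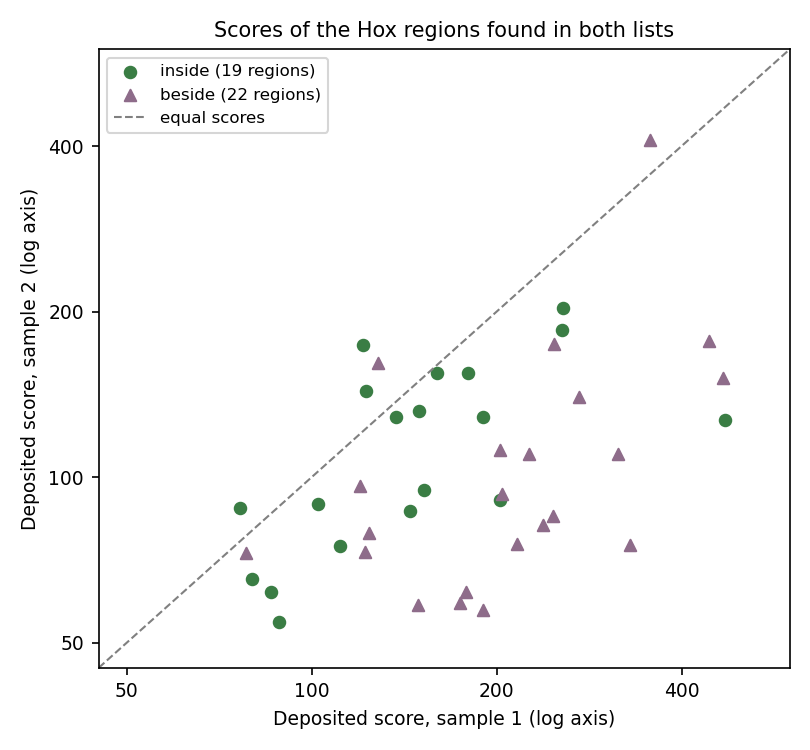
Deposited score in sample 1 (horizontal) against sample 2 (vertical), both on log axes, for the 19 shared regions inside and the 22 beside the Hox clusters; the dashed line marks equal scores. Points below the line, 16 of 19 inside and 20 of 22 beside, had the higher score in sample 1.

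Fewer of the sample 2 regions inside the clusters were narrow than on the rest of the chromosomes, in 3 of the 4 clusters. The gap was larger for regions of sample 2 only than for shared ones. A width of up to 100 bp was found in 8 of 33 regions inside in sample 2 (24.2%, interval 11.1 to 42.3%), against 14 of 38 beside (36.8%, 21.8 to 54.0%) and 47.3% (46.2 to 48.3%) on the rest of the 4 chromosomes. In sample 1 it was 10 of 23 inside (43.5%, 23.2 to 65.5%), 18 of 25 beside (72.0%, 50.6 to 87.9%) and 60.9% (59.6 to 62.2%) on the rest, which lies within both intervals. Inside, the median width was 106 bp (sample 1) and 129 bp (sample 2), against 84 and 106 bp on the rest. The interval for sample 2 inside does not reach the value of the rest, and this difference was not tested. Of the sample 2 regions inside, 7 of the 19 shared ones (36.8%) and 1 of the 14 not shared (7.14%) were this narrow. On the rest of the 4 chromosomes these shares were 48.5% and 46.1%. The clusters differed: none of the 8 sample 2 regions inside HoxA and none of the 4 inside HoxD was this narrow, against 3 of 11 inside HoxB and 5 of 10 inside HoxC, the last near the 46.6% on the rest of chromosome 15. In the HoxC flanks all 9 sample 1 regions were this narrow. The limit of 100 bp was chosen after the widths had been seen. An edge lay within 1 bp in both lists in 5 of the 19 shared regions inside and 8 of the 22 beside, and in 29.6% of pairs elsewhere.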

How the data were processed

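Both replicates were immunoprecipitates with an antibody against the Myc tag, each from 24 µg of chromatin, and the reads of 2 lanes were combined per replicate after alignment, per the labels' protocols. The submitters' processing notes name Bowtie 0.12.7, bedtools 2.11.2 and mm9 and give no settings. Region names carry the prefix MACS; the version, the thresholds and the use of a control are not stated in these sources. The authors deposited 1 list per replicate, with a score per region whose meaning is not stated. The score was therefore used to rank regions within a list. No counts of reads were used.

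Each window is a cluster with the edges given above and 200 kb at either end. Regions overlapping by at least 1 bp were shared and were merged. Density on the rest of a chromosome used the length from its first to its last region, without the window. Intervals are exact (Poisson, or Clopper-Pearson for shares) at 95%. Regions named are all shared ones inside, the 3 shared ones beside each cluster with the highest mean percentile (HoxD had 2), and the longest empty stretch of each window; any other region was picked once its values were known. The Hox genes, windows and alternatives were chosen with earlier results of these data known. The code for overlap and placement was checked on simulated data. All 12000 planted regions, which were slightly shifted copies of sample 1 regions, were found, and 1 region beyond them. All 96 regions planted in the windows were placed in the right part. This is a check of the code and not of the called regions. Python 3.11.15, numpy 2.4.6, scipy 1.17.1, pandas 2.3.3 and matplotlib were used. Coordinates count from 1.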

Additional observations from a re-analysis of the deposited data

How the results depend on the processing

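The density ratio inside the clusters lay between 2.85 and 3.92 over its 12 alternatives, and the ratio beside them between 1.07 and 1.53 over 13. With each replicate left out in turn, there were 23 to 33 regions inside (ratio 3.45 to 3.92) and 25 to 38 beside (1.34 to 1.44); the lower counts are those without replicate 2, the longer list. With the upper 50% of each list by score there were 17 regions inside and 27 beside, and 66.7% of the sample 1 and 44.4% of the sample 2 regions of the windows were shared. These fell in part by construction, since fewer regions entered. A flank of 100 kb left 17 regions beside. With reciprocal overlap of 50%, 68.8% of the sample 1 regions were shared. With the sample 2 regions under the lowest sample 1 score left out, the share was 70.8% for both samples. Of 118 values under the alternatives, 26 moved, none of them a ratio or a median percentile; 16 of the 26 were counts of single clusters, and no ratio crossed 1. The interval of the ratio beside the clusters, which includes 1 as reported, excluded it with HoxD left out (1.007 to 2.01), edges 10 kb further in (1.06 to 1.91), the score limit on sample 2 (1.025 to 2.03) and the upper 50% by score (1.006 to 2.22). The alternatives of cluster edges, clusters left out, the score limit for counts and ratios, and percentiles within the chromosome were chosen after seeing the data. Shares and percentiles without a replicate were not run: a share needs both lists, and percentiles are given per list. No paired analysis was possible because there was 1 group. Without known depth, a region called in 1 list may have been missed in the other.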
